A study of Mus musculus with 6 samples.

Results

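The adipogenic transcription factors are the regulators that turn a stromal precursor into a fat cell. The 10 genes described here are Pparg, Cebpa, Cebpb, Cebpd, Ebf1, Ebf2, Klf15, Srebf1, Rxra and Zfp423, out of 18193 genes with a symbol of their own on the array. The genes were chosen with earlier results of these data known. Their probe sets were taken by symbol, without use of values, as every probe set that the platform annotation pairs with exactly 1 of these names. That gave 20 of 45037 probe sets, with 5 for Ebf1, 3 each for Ebf2 and Rxra, 2 each for Cebpb and Cebpd, and 1 each for the other 5 genes. All 10 genes had a probe set with a mean log2 expression of at least 6 in 1 group, the level used here to call a gene expressed, and 15 of the 20 probe sets reached it.

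RNA was measured on Affymetrix arrays in commercial mouse mesenchymal stem cells, of a strain that the labels do not give. Irradiated cultures (n = 3) received pulsed terahertz radiation for 12 h, with a broad band around 10 THz, at an average power density of 1 mW/cm2. Control cultures (n = 3) stood next to them without radiation in the same 3 independent experiments, and both were held at 26 to 27 °C. Irradiated and control cultures shared a medium that drives fat cell formation, with rosiglitazone (1 µM), insulin (5 µg/ml), IBMX (100 µM) and dexamethasone (1 µM), added again 48 h before the exposure. No undifferentiated culture is among these 6 arrays, so the response to the medium itself cannot be read from them. Expression is log2 per probe set as deposited, and the precision is limited by the number of arrays, 1 of each kind in an experiment.

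In the textbook order of adipogenesis, hormonal signals first induce C/EBPβ and C/EBPδ, and these early factors switch on PPARγ and C/EBPα, the late factors, which then keep each other active and turn on the genes of lipid storage. PPARγ binds DNA as a pair with RXRα and is activated directly by rosiglitazone, while dexamethasone acts through the glucocorticoid receptor and IBMX keeps cAMP high. EBF1, EBF2 and ZFP423 act earlier, in committing precursors to the fat lineage, and SREBP1 and KLF15 support lipid and glucose metabolism in the maturing cell.

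The DNA upstream of 4 of these genes is shown. Ebf1 is included because several of its probe sets read higher, and the early factor Cebpb and the late factors Cebpa and Pparg because their differences are compared with that of Cebpd. Each line gives the 250 bases before an annotated transcript start, 5′ to 3′, from RefSeq on build GRCm38.p6. Capitals mark matches on either strand to 3 motifs: the core of the cAMP response element, whose letters are TGACG, the C/EBP site, searched for here as TTGCNNAA, and the TATA box, for which the letters were TATAAA.
Ebf1, chr11:44617850-44618099, plus strand: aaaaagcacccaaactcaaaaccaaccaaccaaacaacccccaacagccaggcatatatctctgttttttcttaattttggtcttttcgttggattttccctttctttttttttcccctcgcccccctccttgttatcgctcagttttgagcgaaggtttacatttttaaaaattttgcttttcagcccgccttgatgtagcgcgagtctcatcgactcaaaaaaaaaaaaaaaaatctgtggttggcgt
Cebpb, chr2:167688665-167688914, plus strand: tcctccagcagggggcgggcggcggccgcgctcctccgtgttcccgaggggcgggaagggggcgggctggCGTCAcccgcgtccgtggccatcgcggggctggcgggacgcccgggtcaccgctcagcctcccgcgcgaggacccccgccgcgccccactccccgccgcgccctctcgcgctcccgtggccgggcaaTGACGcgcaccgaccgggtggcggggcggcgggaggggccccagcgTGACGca
Cebpa, chr7:35119043-35119292, plus strand: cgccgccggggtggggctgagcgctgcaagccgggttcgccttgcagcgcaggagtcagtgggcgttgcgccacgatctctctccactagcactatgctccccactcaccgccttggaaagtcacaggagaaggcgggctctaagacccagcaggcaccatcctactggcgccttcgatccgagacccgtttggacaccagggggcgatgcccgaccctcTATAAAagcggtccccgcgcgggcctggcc
Pparg, downstream start, chr6:115421816-115422065, plus strand: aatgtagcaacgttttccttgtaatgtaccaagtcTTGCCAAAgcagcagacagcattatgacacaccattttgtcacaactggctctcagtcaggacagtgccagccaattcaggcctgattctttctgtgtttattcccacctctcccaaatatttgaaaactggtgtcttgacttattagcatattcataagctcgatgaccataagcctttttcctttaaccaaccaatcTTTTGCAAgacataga

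The Cebpb window held 3 matches to TGACG, which begin 180, 53 and 7 bases before the start. Among the other members with a sequence at hand, TGACG occurred only in the Klf15 window, and 17.8% of the 32851 mouse windows of this length held it. The window at the downstream Pparg start held 2 matches to TTGCNNAA, beginning 215 and 16 bases before it, against 9.56% of all windows with any, and Zfp423 was the other member gene with such a match. TATAAA began 30 bases before the Cebpa start and also occurred at another Pparg start, and 12.4% of all windows held it. The full cAMP response element TGACGTCA and the AP-1 letters TGANTCA, found in 1.55% and 6.75% of windows, were in none of the 15 windows searched, which belong to all members but Cebpd and Ebf2. The E-box CACGTG occurred 2 times in the Klf15 window and in 6.02% of all windows. The letters TGACG are the first part of TGACGTCA, and no other overlap occurred in the printed lines. Binding was not measured, and these matches describe letters only.

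The comparison of irradiated with control cultures asks which of these regulators differ after the exposure. By their brightest probe sets, Cebpd and Ebf1 lay higher in irradiated cultures in all 3 experiments. Their groups did not overlap there, but neither passed adjustment over all probe sets. By the same measure Pparg, Cebpa, Cebpb, Ebf2, Klf15, Srebf1, Rxra and Zfp423 overlapped between the groups and differed in sign between experiments. In limma with the experiment as a block, 0 of the 20 probe sets had an adjusted p under 0.05, and the same held for 0% of the 45037 probe sets. Before adjustment, 5 of 20 were higher with a p under 0.05, all of them probe sets of Cebpd or Ebf1, and 0 lower. The shares over all probe sets were 3.86% higher and 4.20% lower. Probe sets of a gene read the same RNA, so the count by gene is 2 of 10 higher, against 4.57% of the 9302 expressed genes, and 0 lower, against 6.28%. These 2 genes were also the members in which all irradiated arrays lay above all control arrays, which 5.34% of expressed genes did, while 0 members lay wholly below, against 7.12%. In these 2 genes, and in no other member, the difference of the brightest probe set was above 0 in all 3 experiments, as for 18.6% of expressed genes.

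**Figure D1:**
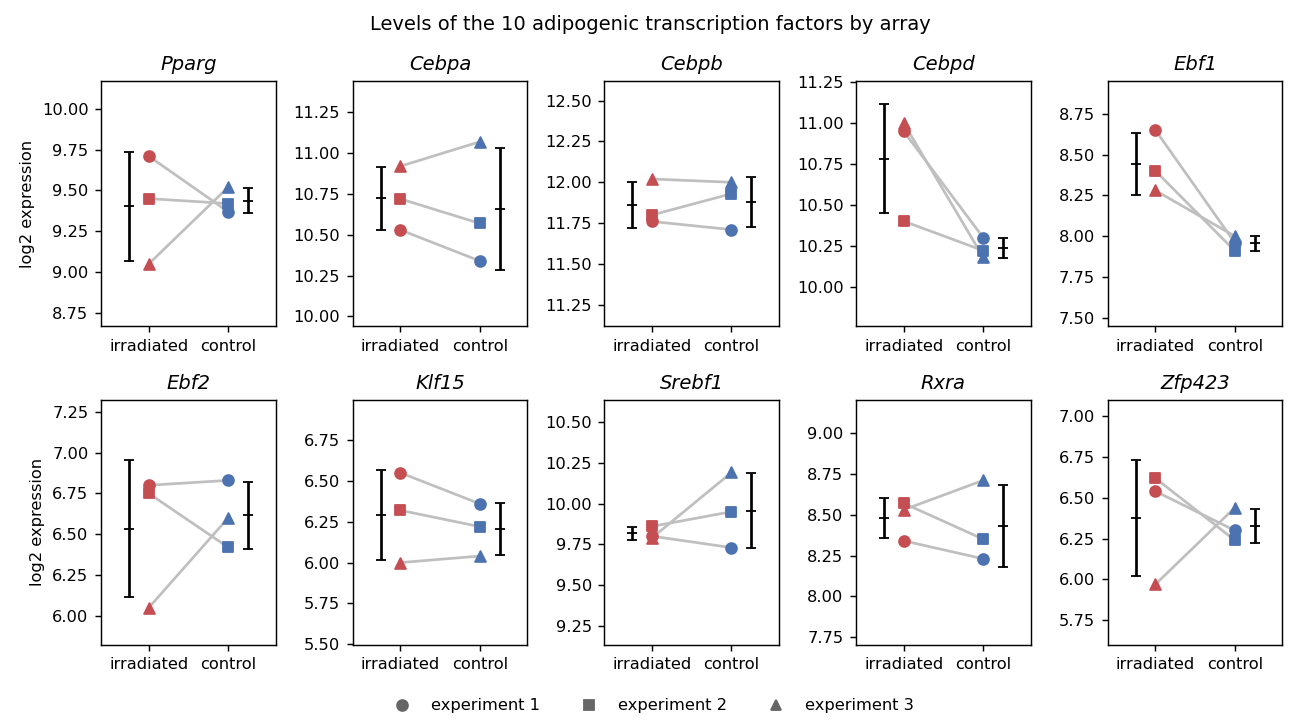
Log2 expression of each adipogenic transcription factor (brightest probe set) on every array, irradiated left and control right in each panel, with lines joining the arrays of an experiment and bars giving mean ± SD over 3 arrays; every panel spans the same log2 range. Cebpd at 10.40 to 11.00 against 10.18 to 10.30 and Ebf1 at 8.28 to 8.65 against 7.91 to 8.00 are the panels in which no irradiated array meets a control array.

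Among the early factors, Cebpd, which encodes C/EBPδ and is induced by glucocorticoids, read 10.95, 10.40 and 11.00 in irradiated cultures of experiments 1, 2 and 3, against 10.30, 10.22 and 10.18 in their controls. Every irradiated array was above every control array, and the irradiated ones were the more spread, with an SD of 0.33 against 0.06 (n = 3 each). The paired log2 differences were 0.65, 0.18 and 0.82. Their mean was 0.55 ± 0.14 (SE), a fold of 1.46 with a 95% interval on the log2 scale of 0.21 to 0.89, at a limma adjusted p of 0.538. The second Cebpd probe set was dim, at 5.54, 5.42 and 5.79 in irradiated cultures and 5.27, 5.24 and 5.24 in controls. It was higher in each experiment too, by 0.33 ± 0.11 (SE) on the log2 scale.

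Cebpb, which encodes the other early factor, C/EBPβ, did not share that pattern. It read 11.76, 11.80 and 12.02 in irradiated cultures, against 11.71, 11.93 and 12.00 in controls. The groups overlapped, and experiment 3 was the highest in both. The log2 difference was -0.02 (95% interval -0.25 to 0.21), and the second probe set of the gene gave -0.10 (95% interval -0.34 to 0.14). Within each experiment the difference of Cebpd exceeded that of Cebpb, by 0.60, 0.31 and 0.80, with a mean of 0.57 ± 0.25 (SD, n = 3). This gap was not tested, since the smallest two-sided exact permutation p that 3 pairs allow is 0.25.

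Of the late factors, Pparg, the master regulator of the fat cell, read 9.71, 9.45 and 9.05 in irradiated cultures and 9.37, 9.42 and 9.52 in controls. The control arrays lay close together, with an SD of 0.08, while the irradiated arrays ranged on both sides of them, with an SD of 0.33 (n = 3 each). The paired differences were positive in experiment 1, near 0 in experiment 2 and negative in experiment 3, and they averaged -0.03 (95% interval -0.42 to 0.35). Without experiment 3 the mean was 0.19, and without experiment 1 it was -0.22. A single probe set stands for Pparg on this array, so its transcript forms are not separated here.

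Cebpa, which encodes C/EBPα, read 10.53, 10.72 and 10.92 in irradiated cultures, against 10.34, 10.57 and 11.07 in controls. Here the experiments stood apart more than the groups. The mean of the arrays of an experiment spanned 0.56 on the log2 scale, and the difference between groups was 0.06 (95% interval -0.20 to 0.33). It was above 0 in experiments 1 and 2 and below 0 in experiment 3.

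Among the commitment factors, Ebf1 was read by 5 probe sets. This gene encodes an early B-cell factor, a helix-loop-helix regulator that also acts in stromal and fat precursors. Its brightest probe set read 8.65, 8.40 and 8.28 in irradiated cultures, against 7.96, 7.91 and 8.00 in controls. All irradiated arrays lay above all control arrays, with paired differences of 0.69, 0.49 and 0.28. The mean difference was 0.49 ± 0.11 (SE), a fold of 1.40 with a 95% interval of 0.21 to 0.76 on the log2 scale, at a limma adjusted p of 0.536.

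The other Ebf1 probe sets were higher on average as well, to different extents. Probe set 1439789_at read 7.65, 7.41 and 7.24 in irradiated cultures and 7.06, 6.66 and 6.94 in controls, with a log2 difference of 0.55 ± 0.12 (SE), and the groups did not overlap. Probe set 1448293_at differed by 0.50, 0.38 and 0.02 in the 3 experiments, and 1416302_at by 0.35, 0.38 and -0.18. The 4 expressed probe sets of Ebf1 thus gave positive differences in experiments 1 and 2, and between -0.18 and 0.30 in experiment 3. The fifth, 1457441_at, was dim, at means of 3.78 in irradiated and 3.67 in control cultures. Averaged over the 4 expressed probe sets, Ebf1 differed by 0.38 on the log2 scale, with a limma adjusted p of 0.293 over genes.

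Ebf2, a relative of Ebf1 known for its role in brown and beige fat precursors, read 6.80, 6.75 and 6.05 in irradiated cultures, against 6.83, 6.42 and 6.60 in controls. The irradiated array of experiment 3 was the lowest of the 6. The log2 difference was -0.08 (95% interval -0.49 to 0.32), and it was 0.15 without experiment 3. Its remaining probe sets were dim, with mean differences of 0.02 and -0.01. Ebf1 exceeded Ebf2 in its paired difference in each experiment, by 0.72, 0.16 and 0.83, a gap that was not tested.

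Zfp423, which encodes a zinc-finger protein that marks committed preadipocytes, read 6.54, 6.62 and 5.97 in irradiated cultures and 6.30, 6.24 and 6.44 in controls. As for Ebf2, the irradiated array of experiment 3 was the lowest. The irradiated Zfp423 values of experiments 1 and 2 were above their controls, which for Ebf2 held in experiment 2 only. The mean log2 difference was 0.05 (95% interval -0.36 to 0.46), or 0.31 without experiment 3. Its values lay near the level of 6.

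The partner and the metabolic regulators gave small differences. Rxra, the heterodimer partner of PPARγ, read 8.34, 8.57 and 8.53 in irradiated cultures, against 8.23, 8.35 and 8.71 in controls, a log2 difference of 0.05 (95% interval -0.22 to 0.32). Its second expressed probe set differed by -0.08 (95% interval -0.33 to 0.16), and the third was dim. Srebf1, which encodes the activator of fatty acid synthesis genes SREBP1, read 9.80, 9.86 and 9.79 in irradiated cultures, against 9.73, 9.95 and 10.19 in controls. Its irradiated arrays were nearly level, with an SD of 0.04, and its control arrays had an SD of 0.23 (n = 3 each). The mean difference was -0.14 (95% interval -0.43 to 0.15), and that of experiment 3 was -0.40. Klf15, a Krüppel-like factor that promotes expression of the glucose transporter GLUT4, read 6.55, 6.32 and 6.0 in irradiated cultures and 6.36, 6.22 and 6.04 in controls. Experiment 1 was highest and experiment 3 lowest in both groups, and the difference was 0.08 (95% interval -0.16 to 0.32).

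**Figure D2:**
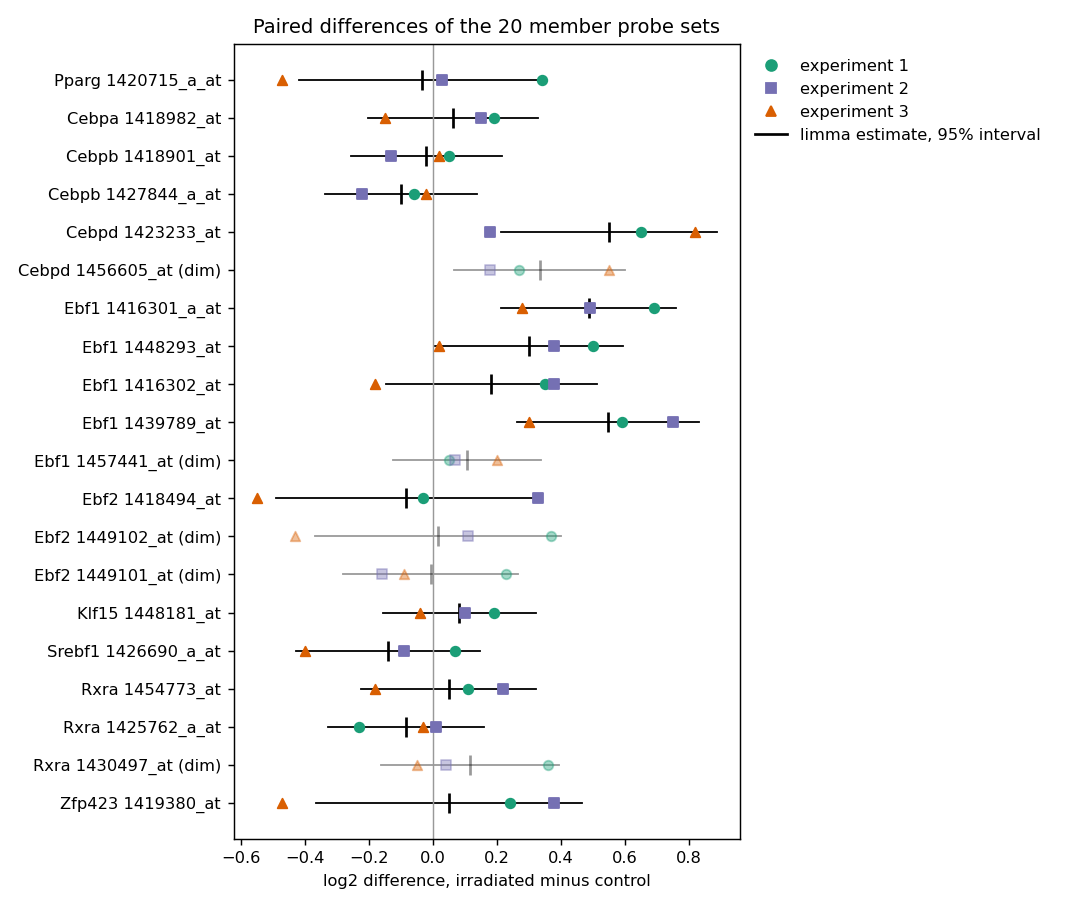
Log2 difference, irradiated minus control, of the 20 probe sets of the adipogenic transcription factors, with a point for each experiment, a tick for the limma estimate and a line for its 95% interval; pale rows are probe sets below a mean of 6 in both groups. The intervals of both Cebpd probe sets and of 3 Ebf1 probe sets lie above 0, before any adjustment, and the triangles of experiment 3 lie lowest in 8 of the 10 brightest probe sets.

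The 3 experiments did not give the members the same direction. Over the brightest probe set of each gene, 9 of 10 members were higher in the irradiated culture of experiment 1, 8 in experiment 2 and 3 in experiment 3. Median log2 differences over the 10 members were 0.19, 0.17 and -0.17, while those over all expressed genes were 0.01, 0.00 and 0.00. For 8 of the 10 members, all but Cebpb and Cebpd, experiment 3 gave the lowest of the 3 differences, as it did for 39.7% of expressed genes. The spiked hybridisation controls, which come from no cell, gave a log2 difference between irradiated and control array of 0.50 in experiment 3, against 0.08 and -0.03 in experiments 1 and 2, and their part in these differences was not tested. With 1 array of each kind in an experiment, no test of whether the response differs between experiments was possible.

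Levels were also compared between the experiments irrespective of radiation, and the members stood near the share of expressed genes. A moderated F test of the experiment term in the same limma fit, added after the data were seen, put 2 members under 0.05 before adjustment, Cebpa and Klf15, as it did 18.3% of expressed genes. Cebpa was highest and Klf15 lowest in experiment 3 in both groups. After adjustment over all probe sets, 0 members passed, with adjusted p from 0.222 to 0.762 over the 10 brightest probe sets, and 0.00444% of all probe sets did.

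Set side by side, early and late factors parted in experiment 3. The early factors Cebpb and Cebpd had mean log2 differences of 0.35, 0.03 and 0.42 in experiments 1, 2 and 3, and the late factors Pparg and Cebpa of 0.27, 0.09 and -0.31. Early minus late was 0.09, -0.07 and 0.73, with a mean of 0.25 ± 0.42 (SD, n = 3), which is less than the spread between experiments. Without experiment 3 the gap was 0.01. It rested on Cebpd, since Cebpd alone against the late factors gave a mean of 0.54 and Cebpb alone gave -0.04. The commitment factors averaged 0.30, 0.40 and -0.25, with the brightest Ebf1 probe set positive throughout.

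**Figure D3:**
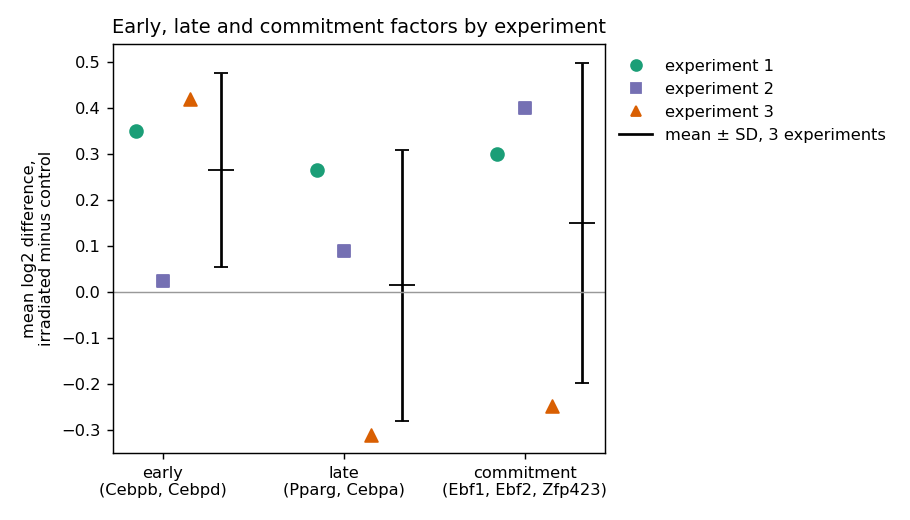
Mean log2 difference, irradiated minus control, of the early, late and commitment factors in each experiment, with bars for mean ± SD over the 3 experiments. In experiment 3 the early factors stand at 0.42 and the late factors at -0.31, while in experiments 1 and 2 the early and late factors lie within 0.09 of each other.

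Expressed genes outside the group were ranked by the root mean square gap between their 3 paired differences and those of Pparg or Cebpd. Over 9292 genes, Hibch, an enzyme of valine breakdown, was nearest to Pparg with differences of 0.33, -0.02 and -0.45, a gap of 0.03. Srpx and Gpr135 followed with gaps of 0.04 and 0.05. Nearest to Cebpd were Pus3, a pseudouridine synthase of transfer RNA, with differences of 0.71, 0.12 and 0.77, then Ptchd4 and Pigl, with gaps of 0.06, 0.08 and 0.09. Each match rests on 3 values. A ranking of this many genes always returns a nearest one, so it cannot show that any gene moved together with these factors.

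Further regulators of adipogenesis were read from lists. No member of any list below passed adjustment over all probe sets in limma, so their counts are given at an unadjusted p under 0.05, where 3.70% of all 18193 genes were higher and 4.61% lower. Of 19 other pro-adipogenic factors 13 were higher and 6 lower in irradiated cultures, with 3 higher and 1 lower at that p and a median log2 difference of 0.09, where the median over all genes was 0.01. Stat5a, a signal transducer that acts in early adipogenesis, read 6.89, 6.87 and 7.09 in irradiated cultures, against 6.50, 6.68 and 6.63 in controls, without overlap. Nfia and Tle3 were higher by 0.34 and 0.24 on average, and Klf5, a Krüppel-like factor downstream of C/EBPβ and C/EBPδ, was lower, at -0.26, with differences of -0.09, -0.25 and -0.45. Klf4, an early inducer of Cebpb, differed by 0.09 (95% interval -0.14 to 0.32) and Nr3c1, the glucocorticoid receptor, by 0.11 (95% interval -0.15 to 0.36).

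Among 20 measured genes listed here as anti-adipogenic 15 were higher and 5 lower, with a median of 0.06. In limma 1 was higher at an unadjusted p under 0.05. That gene was Snai2, a repressor of epithelial genes, at differences of 0.61, -0.04 and 1.09. Its place in this list is an assignment made here, and its effect on fat cell formation was not measured. Hes1, a Notch target, differed by -0.37 and Foxc2 by 0.21. Dlk1, the preadipocyte marker Pref-1, was dim in both groups, at 4.24 ± 0.14 in irradiated and 4.17 ± 0.21 in control cultures (SD, n = 3 each). Runx2 was not analysed here.

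Partners and coregulators of PPARγ gave 7 higher and 13 lower of 20 measured, with a median of -0.06 and 2 higher and 3 lower at that p. Nrip1, the corepressor RIP140 of nuclear receptors, read 10.17, 10.05 and 9.79 in irradiated cultures, against 9.55, 9.58 and 9.34 in controls. Its groups did not overlap, and the log2 difference was 0.51 ± 0.10 (SE). The corepressor Tle1 was higher by 0.38 and the related receptor Ppard lower, at -0.31, each in all 3 experiments.

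The 7 genes of SREBP1 processing gave 6 lower and 1 higher, with a median of -0.16 and medians of -0.17, -0.14 and -0.18 in the 3 experiments, and 3 were lower at an unadjusted p under 0.05. These were Fbxw7, which targets nuclear SREBP for degradation, at -0.41, the protease gene Mbtps2, which releases SREBP from the membrane, at -0.32, and Srebf2, the paralogue of Srebf1, at -0.23. The anchor protein gene Insig1, itself an SREBP target, differed by -0.17, -0.14 and -0.18. Fbxw7 acts against SREBP1 and Mbtps2 for it, so the genes that were lower have opposite known roles. Of 15 measured SREBP1 targets 11 were lower and 4 higher, with a median of -0.10 and experiment medians of 0.08, -0.02 and -0.29. Fasn, the fatty acid synthase, read 9.69, 9.65 and 9.61 in irradiated cultures, against 9.81, 9.99 and 10.12 in controls, without overlap, and was the 1 target at an unadjusted p under 0.05. Acly and Elovl6 differed by -0.24 and -0.20.

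Targets of PPARγ and C/EBPα had median log2 differences of 0.14, -0.12 and -0.31 in the 3 experiments, beside 0.34, 0.03 and -0.47 for Pparg itself. Medians of other lists fell in that order too, at 0.17, 0.02 and -0.14 for glucocorticoid targets and 0.03, -0.035 and -0.12 for cAMP targets. Those of the anti-adipogenic list rose, at -0.045, 0.035 and 0.105. Of 25 measured PPARγ and C/EBPα targets 20 were lower and 5 higher on average, with a median of -0.11, which was 0.02 without experiment 3. In limma 0 of them passed at an unadjusted p under 0.05 in either direction. Gpd1, an enzyme that makes the glycerol backbone of triglycerides, differed by 0.14, -0.85 and -0.67, the glucose transporter gene Slc2a4 by -0.21, -0.14 and -0.32, and the insulin receptor Insr by 0.37, 0.44 and -0.12. The fat cell markers were bright in both groups. Fabp4 read 14.28 to 14.33 in irradiated and 14.22 to 14.39 in control cultures, where the arrays' own maxima were 14.41 to 14.53 and leave little room above it. Adipoq read 13.45 to 13.63 in irradiated and 13.35 to 13.60 in control cultures. Among the less bright ones Cidec differed by 0.50, -0.23 and -0.61 and Lipe by 0.41, -0.26 and -0.53. Stromal markers were also present, with 8 of 9 measured at the level of 6 or more, and 0 of 5 endothelial markers reached it.

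**Figure D4:**
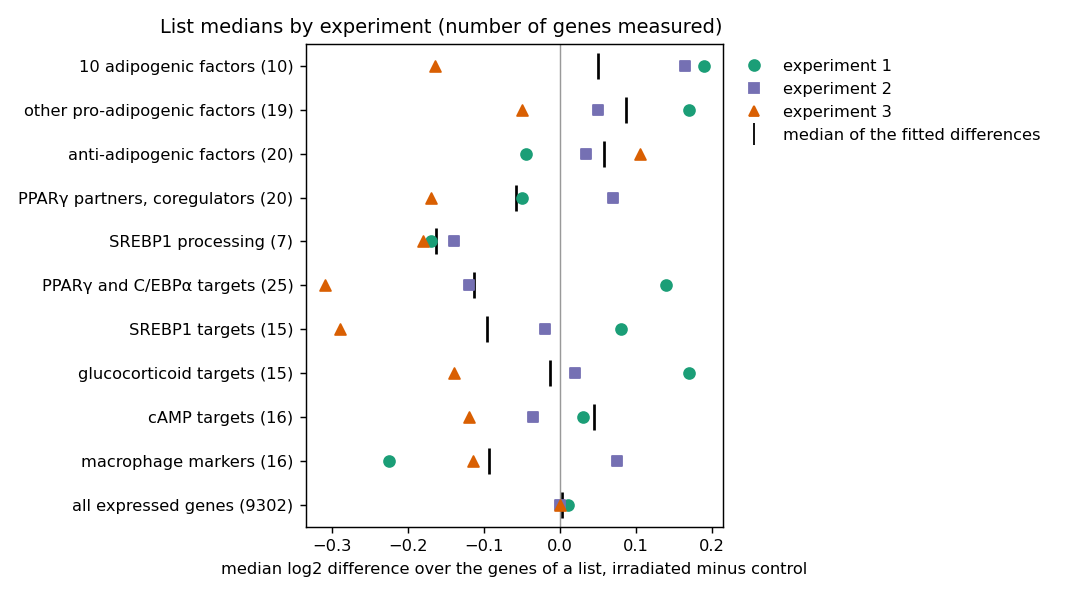
Median log2 difference, irradiated minus control, over the measured genes of each list in each experiment, with a tick for the median of the fitted differences. PPARγ and C/EBPα targets span 0.14 to -0.31 between experiments 1 and 3, SREBP1 processing genes stay between -0.18 and -0.14, and all expressed genes lie between 0.00 and 0.01.

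Signals that induce the early factors were read through other targets of the same agents. Glucocorticoid targets had a median of -0.01 over 15 genes, with 7 higher and 8 lower and 1 in each direction at an unadjusted p under 0.05. Fkbp5, a standard reporter of dexamethasone, differed by 0.18, 0.71 and -0.33, and Tsc22d3 by 0.19, -0.21 and -0.32. Klf9, which is also pro-adipogenic, was higher by 0.23, 0.25 and 0.19. Sult1a1 was higher by 0.43, 0.63 and 0.14, and Mt1 by 0.07, 0.03 and 0.23. The part of glucocorticoid signalling in the Cebpd difference was not tested. Targets of cAMP had a median of 0.05 over 16 genes, with 3 lower at that p. They were Gem at -2.23, Crem at -0.83 and the phosphodiesterase Pde10a at -0.32, while Cebpb, itself a cAMP target, was close to 0.

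Macrophage markers, from cells in which C/EBPβ and C/EBPδ are also active, were lower for 14 of 16 genes, beside 8733 of all 18193 genes. Of the 16 markers 1 was lower at an unadjusted p under 0.05 in limma, and all were expressed. Their mean log2 level ran from 10.97 to 11.69 in irradiated and from 11.19 to 11.87 in control cultures, with a median difference of -0.09 and medians of -0.23, 0.08 and -0.12 in the 3 experiments. Cd14, the lipopolysaccharide coreceptor, differed by -0.84, -0.17 and -1.18, C1qb by -0.25 and Laptm5 by -0.19 on average. Their part in the values of Cebpb, Cebpd and the other members was not tested. In such bulk samples, fewer cells of a type and less RNA per cell cannot be told apart. Among stromal markers, Vcam1 was higher by 0.49 and Pdgfrb lower, at -0.28, each in all 3 experiments. Pdgfra differed by 0.24 on average, but by 0.43, 0.55 and -0.25 in the 3 experiments, and its groups overlapped. The mean of a gene's expressed probe sets gave 0.38 for Vcam1, -0.22 for Pdgfrb and 0.05 for Pdgfra.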

How the data were processed

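Expression was measured in 6 cultures, 3 irradiated and 3 control. The authors deposited a log2 value for each probe set. RMA, affy and limma are named in the submitters' processing notes, while versions, background step and genome build were not given in the sources used here. The 64 array controls were left out of 45101 probe sets. Of the rest 34945 carry 1 gene symbol, 932 several and 9160 none here. Other genes' symbols were updated through gene identifiers for 34741 probe sets. A gene is represented by its brightest probe set over the 6 arrays.

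The test was limma 3.58.1 in R 4.3.3 (lmFit and eBayes, two-sided) with a block for the experiment. P-values were adjusted by Benjamini-Hochberg over 45037 probe sets, with a threshold of 0.05. The pairing comes from the design text, which sets each irradiated culture against its own adjacent control. Deviations from group means correlated at 0.787, 0.028 and 0.324 within experiments 1, 2 and 3 over expressed genes. Across experiments the irradiated array of experiment 2 correlated at 0.552 with the control of experiment 3, more than with its own control, and the other 5 unmatched pairs gave -0.67 to 0.179. The fit had 2 residual and 4.52 prior degrees of freedom. Arrays correlated between 0.9889 and 0.9959, with medians of 4.74 to 4.80. On simulated pairs of arrays the fit called 78 of 100 features given a 2-fold change and 98 of 100 given a 4-fold change. The rest of the 45037 features gave 13 false calls. The 2-fold and 4-fold changes were planted together, which eases the adjustment, so the rates do not carry over to the real arrays. There Gem, at a fold of 4.68, had a limma adjusted p of 0.224. The members and lists were chosen with earlier results of these data known. Named were all members, up to 3 expressed genes of each list with the smallest unadjusted p, a set of 11 fixed genes, and the 3 nearest genes to Pparg and to Cebpd. Figures used matplotlib 3.10.9 and Python 3.11.15.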

Additional observations from a re-analysis of the deposited data

Results flagged for a closer look

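Spiked hybridisation controls enter none of the comparisons above, and in experiment 3 they differed between the arrays. Their mean over 18 probe sets was 11.73 for the irradiated and 11.23 for the control culture, a difference of 0.502 on the log2 scale. In experiments 1 and 2 the difference was 0.08 and -0.03. Experiment 3 is also the one in which 7 of the 10 adipogenic factors were lower in the irradiated culture, and the part of the controls' brightness in that was not tested.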

How the results depend on the processing

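Over the 20 member probe sets, 190 of 205 recomputed differences kept their sign, 14 changed sign and 1, that of Cebpa without experiment 1, was 0. None passed the adjusted threshold in limma. Part of this count was fixed in advance. Dropping the block, making it random, leaving out dim probe sets or changing the variance prior returns the same difference and alters only its p. Averaging probe sets also changes nothing where a gene has a single expressed probe set. The differences of Cebpd, Ebf1, Klf15 and Srebf1 kept their sign throughout, with adjusted p from 0.248 to 0.998. Without the replicate block, the number of probe sets with an unadjusted p under 0.05 was 2168 in place of 3631, while the number of member probe sets was 5 in both. It was 2260 with dim probe sets left out, which tests fewer, and between 1692 and 3748 with an experiment left out. Member probe sets at that p were 2 when only the brightest of each gene was counted, and 2 to 5 with an experiment left out, the 2 being without experiment 1. With the block as a random effect 2 probe sets passed adjustment, neither a member. Leaving out an experiment gave -0.22 to 0.185 for Pparg, -0.055 to 0.035 for Cebpb, -0.29 to 0.15 for Ebf2, -0.16 to 0.24 and -0.125 to 0.07 for its dim probe sets, -0.035 to 0.165 for Rxra, -0.005 to 0.20 for its dim probe set and -0.115 to 0.31 for Zfp423. It gave -0.395 to 0.075 for Lipe, -0.42 to 0.135 for Cidec, -0.06 to 0.005 for Fabp4, -0.055 to 0.165 for Dlk1 and -0.075 to 0.445 for Fkbp5. Array weights turned Pparg to 0.0986, Ebf2 1449101_at to 0.0478, Lipe to 0.0291, Cidec to 0.0701 and Fabp4 to 0.0052. The mean of a gene's expressed probe sets turned Rxra to -0.0167 and Fabp4 to 0.0775. Without a change of sign, it gave smaller differences for genes such as Nrip1 (0.34), Tle1 (0.22), Nfia (0.20), Fbxw7 (-0.28) and Pde10a (-0.17). It gave larger ones for Acly (-0.27), Mt1 (0.28) and Klf4 (0.11). The cause was not tested.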
